A study of Mus musculus with 14 samples.

Results

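A set of 10 cartilage genes that encode no collagen were followed across newborn mouse paws: Sox9, Acan, Comp, Matn1, Matn3, Hapln1, Ihh, Cnmd, Snorc and Chad. They were listed by name, not by their values, and all 10 were found among the 56691 genes of the count table. RNA was taken from whole paws of wild-type (WT) mice and of mice lacking the palmoplantar keratin gene Krt9 (labelled Krt9-/-, called Krt9 null here) on postnatal day 0 (P0) or day 3 (P3). Ribosome-depleted total RNA gave 4 libraries of P0 WT, 2 of P0 Krt9 null, 5 of P3 WT and 3 of P3 Krt9 null, each with a labelled litter and sex. The kind of Krt9 allele, the strain and whether a library pools paws or pups are not stated in the labels, so p-values measure the spread between these 14 libraries.

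Newborn paws hold the growth plates, joint surfaces and cartilage models of the digits. There, SOX9 is the transcription factor that commits cells to the chondrocyte fate and switches on cartilage matrix genes. The matrix is built from aggrecan (Acan), the large proteoglycan that holds water, from link protein (Hapln1), which fastens aggrecan to hyaluronan, and from the adaptor proteins matrilin 1 and 3 (Matn1, Matn3) and cartilage oligomeric matrix protein (Comp), which also occurs in tendon. Chondromodulin (Cnmd) is an inhibitor of vessel growth, Snorc a small chondrocyte proteoglycan and chondroadherin (Chad) a leucine-rich repeat protein to which chondrocytes attach. Indian hedgehog (Ihh) is the signal that prehypertrophic chondrocytes send to pace growth-plate maturation.

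The libraries held 28947715 to 41004173 counts. Krt9 itself stood at 32.9 to 83.0 CPM (counts scaled to library size) in P3 WT and 7.74 to 25.2 CPM in P3 Krt9 null paws. On P0 its ranges overlapped, at 2.09 to 7.61 CPM in WT and 5.32 to 6.08 CPM in Krt9 null paws, so the P0 labels could not be checked by it. P0 WT replicate 4 is labelled female but had next to no RNA of either sex's marker gene (Xist 0.181 CPM, Ddx3y 0.155 CPM), whereas the other 13 libraries matched their labelled sex. The table's columns form 2 alphabetical runs, A with 8 libraries and B with 6, each holding all 4 groups. No label calls the runs batches, but 5017 of 21619 tested genes (23.2%) differed between them (edgeR's quasi-likelihood test with run as a term, Benjamini-Hochberg adjusted p under 0.05), so results are also given within runs.

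Set per kilobase of exon, Comp was the most abundant member, with a mean of 46.6 CPM per kb over the 14 libraries. Acan followed at 22.9, Chad at 14.05, Hapln1 at 11.5, Cnmd at 9.18, Sox9 at 8.54, Snorc at 6.91, Matn1 at 4.11 and Matn3 at 3.11 CPM per kb. Ihh was lowest at 0.733 CPM per kb. Ranges of neighbours in this order overlapped throughout: Comp ran from 17.4 to 85.8 CPM per kb and Acan from 5.57 to 50.9 CPM per kb.

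The spread among paws of one group was wide, and its size set the members apart. The biological coefficient of variation, edgeR's estimate of the spread between libraries of a group as a percentage of the level, was 122% for Matn1, higher than for 99.5% of tested genes. It was 81.3% for Cnmd, 78.1% for Matn3, 77.6% for Snorc and 70.4% for Ihh. It was 53% for Acan, 40.1% for Hapln1, 39.2% for Comp, 37.2% for Chad and 31.1% for Sox9, and 61% of tested genes had a lower value than Sox9.

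**Figure D1:**
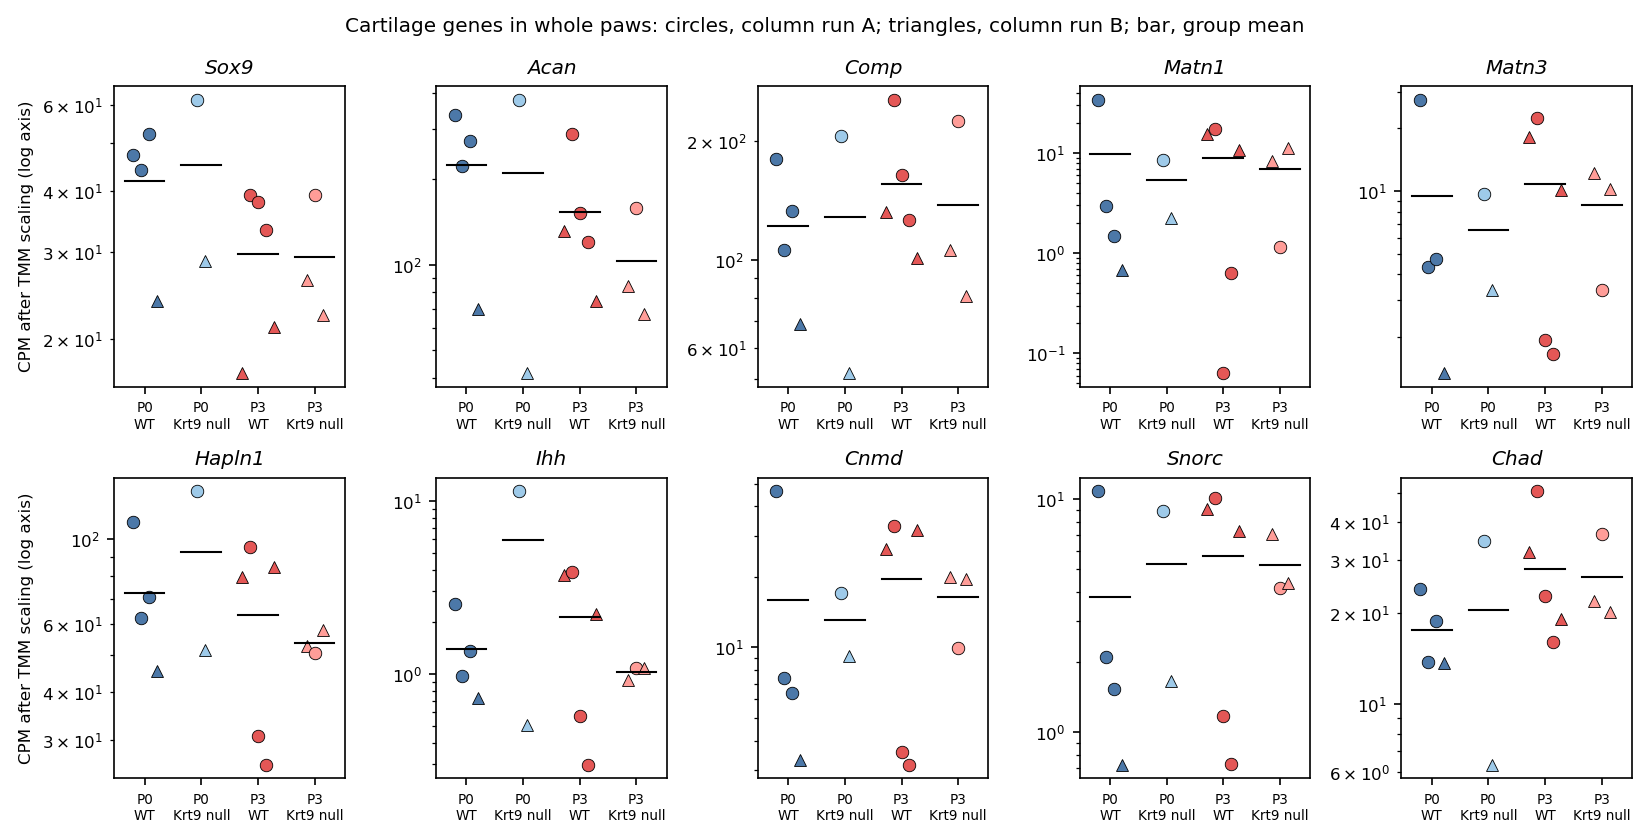
Level of each member in every library (vertical axis, CPM after TMM scaling, log axis) by group (horizontal axis). Circles are libraries of column run A, triangles of run B, and bars are group means. Matn1 spans 0.673 to 34.1 CPM in P0 WT alone, whereas Sox9 spans 23.9 to 52.2 CPM there.

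Matn1, which encodes a matrix protein of hyaline cartilage, was measured at 34.1, 2.93, 1.501 and 0.673 CPM in the 4 P0 WT libraries and at 8.61 and 2.24 CPM in the P0 Krt9 null libraries. In P3 WT it was 15.5, 17.6, 0.0634, 0.631 and 10.7 CPM, and in P3 Krt9 null 8.25, 1.15 and 11.2 CPM. The first P0 WT paw was far above its group, 2 of the 5 P3 WT paws were far below theirs, and groups overlapped. The lowest value rests on 2 counts and the highest on 1306.

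Matn3, its relative in the growth plate, was at 27.5, 4.32, 4.75 and 1.35 CPM in P0 WT and at 9.67 and 3.35 CPM in P0 Krt9 null paws. It was at 18.1, 22.5, 1.93, 1.66 and 10.1 CPM in P3 WT and at 12.2, 3.35 and 10.3 CPM in P3 Krt9 null paws. The libraries high and low in Matn1 were again the high and low ones. Cnmd was also high and low in the same WT libraries, with 46.5, 7.37, 6.40 and 3.31 CPM in P0 WT, 17.0 and 9.15 CPM in P0 Krt9 null, 26.2, 33.1, 3.58, 3.16 and 31.6 CPM in P3 WT, and 19.9, 9.94 and 19.6 CPM in P3 Krt9 null. Snorc ran from 0.724 to 10.8 CPM in P0 WT and from 0.731 to 10.2 CPM in P3 WT, with its 2 extremes of P0 WT in the same libraries, replicates 4 and 1.

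Of these genes, Matn3, Cnmd and Snorc kept closer ratios to each other than Matn1 did. Cnmd and Matn3 spanned 14.7-fold and 20.4-fold over the 14 libraries, but the ratio of Cnmd to Matn3 stayed between 1.35 and 3.13 and that of Snorc to Matn3 between 0.323 and 1.24. The ratio of Matn1 to Matn3 spanned 37.9-fold, from 0.0328 to 1.24, and its lowest value rests on 2 Matn1 counts. The ratio of Cnmd to Sox9 spanned 16.3-fold, from 0.0945 to 1.54. Likeness was measured as the root mean square distance between profiles of log2(CPM + 0.5), each centred on its gene's mean over the 14 libraries, so that 0 is an identical pattern. It was 0.344 between Matn3 and Cnmd, 0.354 between Cnmd and Snorc, 0.436 between Matn3 and Snorc. From Matn1 it was 0.634 to Matn3, 0.680 to Cnmd and 0.854 to Snorc, against 1.36 between Matn3 and Sox9. The collagen IX chain gene Col9a1 lay at 0.250 from Matn3, 0.251 from Cnmd and 0.287 from Snorc. These distances describe libraries that share depth and tissue make-up and carry no test, and in whole paws fewer cartilage cells and less RNA per cell cannot be told apart.

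**Figure D2:**
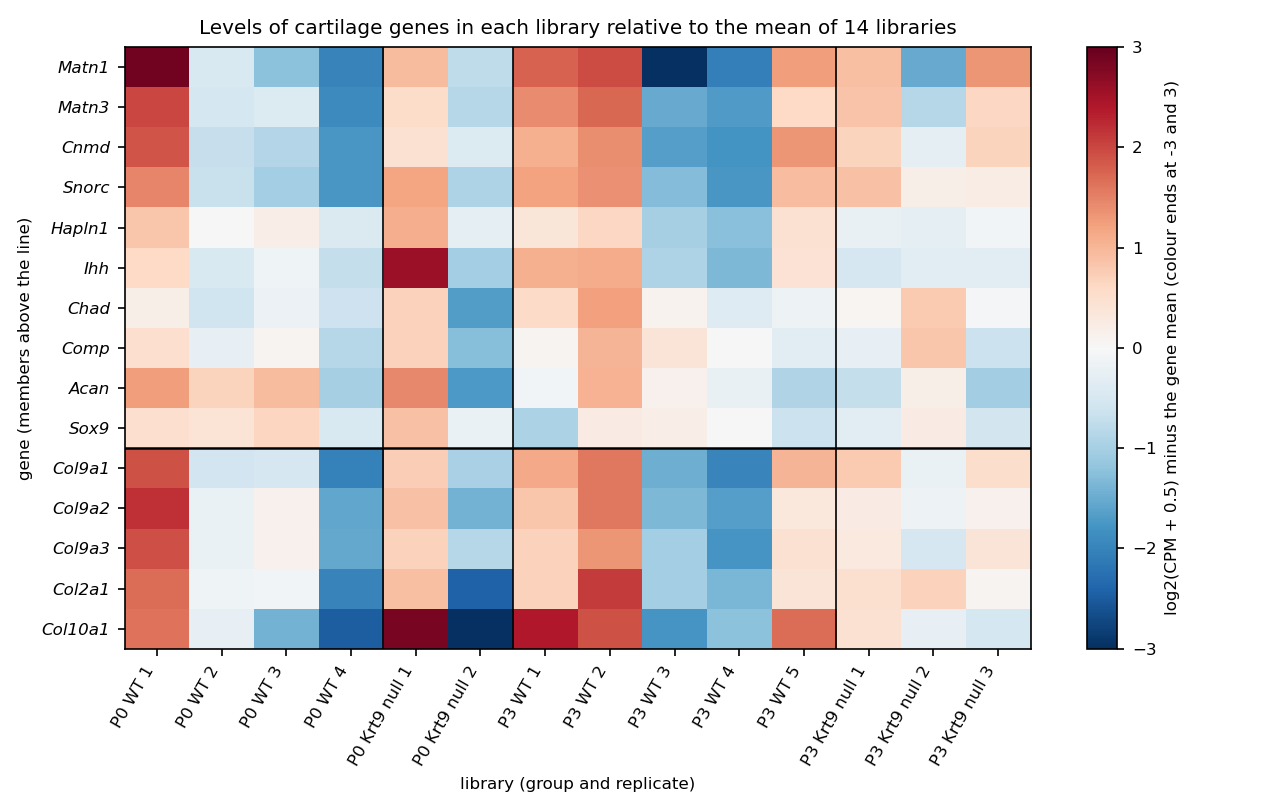
Colour shows log2(CPM + 0.5) of each gene (rows) in each library (columns) minus the gene's mean over 14 libraries, with the members above the line and cartilage collagens under it. Matn1, Matn3, Cnmd and Snorc are high in P0 WT replicate 1 and P3 WT replicates 1 and 2, and low in P0 WT replicate 4 and P3 WT replicates 3 and 4.

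A wide contrast lay between 2 male P3 WT libraries labelled as 1 litter and both in column run A, replicates 2 and 3. Matn1 had 730 counts in the first and 2 in the second, a ratio of 277 in CPM (exact 95% counting interval 76.4 to 2291). The ratio was 11.7 (8.99 to 15.4) for Matn3, 9.24 (7.62 to 11.3) for Cnmd, 8.67 (6.19 to 12.5) for Snorc and 6.79 (4.16 to 11.7) for Ihh. Hapln1 differed 3.11-fold, Chad 2.22-fold, Acan 1.90-fold and Comp 1.55-fold, while Sox9 differed by 1.03 (0.958 to 1.11). Among the 10 members Matn1 and Matn3 differed most in this pair, whereas the counting interval of Sox9 spans 1. Col2a1, the main cartilage collagen gene, differed 8.69-fold and Col10a1, the collagen gene of hypertrophic cartilage, 13.1-fold. Summed dermal fibroblast markers differed less, at 80364 and 65724 CPM, as did summed epidermal markers, at 20633 and 25812 CPM, and their part in these ratios was not tested. Intervals cover counting error only.

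**Figure D3:**
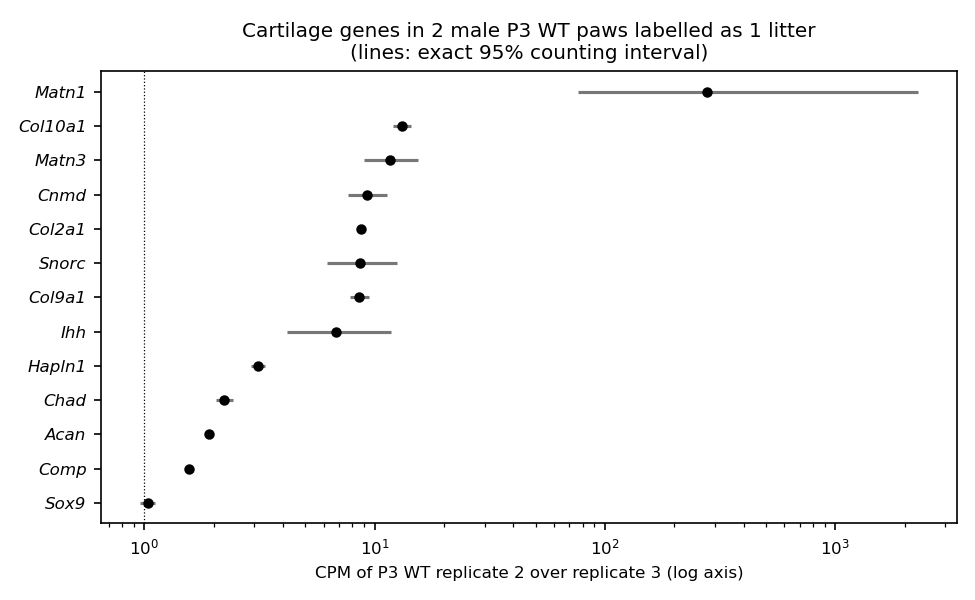
Ratio of CPM between P3 WT replicates 2 and 3, males labelled as 1 litter (horizontal axis, log axis), for the members and 3 cartilage collagens (vertical axis); lines are exact 95% counting intervals. Sox9 sits at 1.03, Comp, Acan, Chad and Hapln1 between 1.55 and 3.11, and Matn1 at 277.

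A second pair shared a litter across genotypes. P0 WT replicate 1 had 3.96 times the Matn1 CPM of P0 Krt9 null replicate 1, 2.84 times the Matn3, 2.73 times the Cnmd and 1.22 times the Snorc. For the other 6 of the 10 members the order was turned, with every counting interval below 1. The ratio was 0.882 for Acan, 0.875 for Comp, 0.831 for Hapln1, 0.771 for Sox9 and 0.692 for Chad. It was lowest for Ihh, which had 97 counts in the WT library and 397 in the Krt9 null library, a ratio of 0.222 (0.176 to 0.278), and Col10a1 likewise stood at 0.429. The matrilin genes thus differed in the opposite direction to Ihh in this pair, whereas in the P3 pair they had the same direction.

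Matn1, Matn3 and Cnmd were high and low in the same WT libraries, although Matn1 kept looser ratios to the other genes than Snorc did. The 250 bases before their annotated starts are printed beside those of Acan, which varied less. These sequences come from RefSeq on build GRCm38.p6, which holds no coordinates of the counting build GRCm39. It had entries for 7 of the 10 members and none for Snorc, which is therefore left out. Capitals mark every match, on either strand, to TATAAA, to the SOX-type words ACAAAG and ACAATG, to the GC box GGGCGG or to CCAAT.
Matn1 chr4:130944135-130944384, plus strand: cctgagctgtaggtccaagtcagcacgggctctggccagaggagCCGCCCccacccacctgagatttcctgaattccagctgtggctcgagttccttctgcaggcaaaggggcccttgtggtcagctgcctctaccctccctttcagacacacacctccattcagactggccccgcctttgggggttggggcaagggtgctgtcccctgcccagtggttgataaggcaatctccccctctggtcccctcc
Matn3 chr12:8947679-8947928, plus strand: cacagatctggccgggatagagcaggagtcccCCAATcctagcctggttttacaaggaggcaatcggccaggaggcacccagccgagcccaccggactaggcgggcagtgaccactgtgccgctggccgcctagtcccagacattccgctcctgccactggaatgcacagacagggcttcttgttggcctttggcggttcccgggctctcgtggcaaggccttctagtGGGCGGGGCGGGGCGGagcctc
Cnmd chr14:79662184-79662433, minus strand: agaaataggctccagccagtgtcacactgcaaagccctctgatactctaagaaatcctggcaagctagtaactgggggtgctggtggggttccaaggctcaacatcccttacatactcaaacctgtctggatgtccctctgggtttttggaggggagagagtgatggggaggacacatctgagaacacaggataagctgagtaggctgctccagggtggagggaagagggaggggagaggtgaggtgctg
Acan chr7:79052976-79053225, plus strand: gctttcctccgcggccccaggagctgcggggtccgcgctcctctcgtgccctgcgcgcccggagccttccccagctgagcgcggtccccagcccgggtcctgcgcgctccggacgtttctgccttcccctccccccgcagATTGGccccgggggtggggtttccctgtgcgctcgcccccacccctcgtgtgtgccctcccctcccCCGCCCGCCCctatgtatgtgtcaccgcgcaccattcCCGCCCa
Matn3 and Acan each held 3 GC boxes and 1 CCAAT, with adjoining GC boxes that overlap, Matn1 held 1 GC box, and Cnmd held none of the 5 words. Of 32851 windows of the same length, 32.7% held GGGCGG, 33.8% CCAAT, 12.4% TATAAA, 16.5% ACAAAG and 10.7% ACAATG. The windows were 62.0% G or C for Matn1, 65.2% for Matn3, 54.0% for Cnmd and 74.4% for Acan, against a median of 52.4% over all windows. None of the 5 words was held by all 3 of Matn1, Matn3 and Cnmd.

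Ihh was scarce and set apart by 1 library. It was at 2.53, 0.978, 1.36 and 0.724 CPM in P0 WT, at 11.4 and 0.504 CPM in P0 Krt9 null, at 3.74, 3.87, 0.571, 0.299 and 2.22 CPM in P3 WT, and at 0.920, 1.09 and 1.09 CPM in P3 Krt9 null. The highest and the second lowest of all 14 values were thus the 2 P0 Krt9 null paws. Col10a1 was also at its highest in P0 Krt9 null replicate 1, with 392 CPM, and at its lowest in replicate 2, with 5.996 CPM. Hapln1 was at 111, 62.2, 70.9 and 45.4 CPM in P0 WT, at 133 and 51.6 CPM in P0 Krt9 null, at 79.7, 95.6, 30.8, 25.9 and 84.8 CPM in P3 WT, and at 52.7, 50.6 and 58.1 CPM in P3 Krt9 null. Its profile lay nearest to that of Ihh among the members, at a distance of 0.537.

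Sox9 varied least. It was at 47.3, 44.2, 52.2 and 23.9 CPM in P0 WT, at 61.4 and 28.8 CPM in P0 Krt9 null, at 17.0, 39.2, 37.9, 33.3 and 21.1 CPM in P3 WT, and at 26.4, 39.2 and 22.3 CPM in P3 Krt9 null. The low values of each group were those of column run B. Acan was at 335, 222, 272 and 69.9 CPM in P0 WT, at 380 and 41.6 CPM in P0 Krt9 null, at 131, 289, 152, 120 and 74.8 CPM in P3 WT, and at 84.4, 158 and 67.4 CPM in P3 Krt9 null. Comp ran from 69.0 to 180 CPM in P0 WT, 51.7 to 205 CPM in P0 Krt9 null, 101.3 to 255 CPM in P3 WT and 81.1 to 225 CPM in P3 Krt9 null. Chad ran from 13.7 to 24.0 CPM in P0 WT, 6.32 to 34.7 CPM in P0 Krt9 null, 16.0 to 50.6 CPM in P3 WT and 20.3 to 36.7 CPM in P3 Krt9 null. Comp and Chad were the closest pair of all members, at a distance of 0.325.

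With run as a term, Sox9 was lower in run B than in run A by a log2 difference of -0.89 (SE 0.085, adjusted p = 7.45e-06, edgeR). Acan differed by -1.31 (SE 0.26, adjusted p = 0.00786) and Comp by -0.94 (SE 0.19, adjusted p = 0.00697). The other 7 members did not pass this test, with Chad at -0.53 (SE 0.31) and Matn1 at 1.17 (SE 1.51). Over all genes the same test called 5017 of 21619 (23.2%), with 2924 of them lower in run B. A difference between runs was thus common and not particular to these members. Summed levels of the 10 dermal fibroblast markers ran from 26039 to 48419 CPM in run B and from 48048 to 80364 CPM in run A, and their part in these differences was not tested.

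Between P0 and P3, no member passed the test in WT paws, where 16.6% of the 21619 tested genes were called (8.49% higher, 8.07% lower; edgeR, adjusted p under 0.05). None of the 10 had an unadjusted p under 0.05 either, against 6645 of all tested genes, and DESeq2, which called 4696 genes, called no member. Acan stood at a log2 fold change of -0.63 (95% interval -1.80 to 0.53) and Sox9 at -0.51 (-1.15 to 0.13). Chad stood at 0.55 (-0.26 to 1.35), Snorc at 0.72 (-1.06 to 2.50) and Matn1 at 0.19 (-2.69 to 3.08), an interval from 0.155-fold to 8.43-fold. The median of the members was 0.31 and that of all tested genes -0.01, with 7 of 10 members above 0. Leaving out 1 library moved the members' median to between -0.21, with 2 of 10 above 0, without P3 WT replicate 5 and 0.65 without P0 WT replicate 1, and it was 0.07 without P0 WT replicate 4. No member's P0 and P3 ranges were apart in WT, as they were for 16.7% of tested genes.

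In Krt9 null paws the change from P0 to P3 was not called for any member either, with 0.768% of tested genes called (0.338% higher, 0.43% lower). The edgeR test gave 3435 tested genes an unadjusted p under 0.05 and no member, and DESeq2 called 1090 genes and no member. Ihh had the lowest value, a log2 fold change of -1.63 (-3.91 to 0.65), and Matn1 the highest, 0.98 (-3.10 to 5.07). The median of the members was 0.51. It was 0.97 without P0 Krt9 null replicate 1, 0.81 without P3 Krt9 null replicate 1, 0.07 without P3 Krt9 null replicate 2, -0.01 without P3 Krt9 null replicate 3 and -0.10 without P0 Krt9 null replicate 2. No member's ranges were apart, against 25.6% of tested genes.

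**Figure D4:**
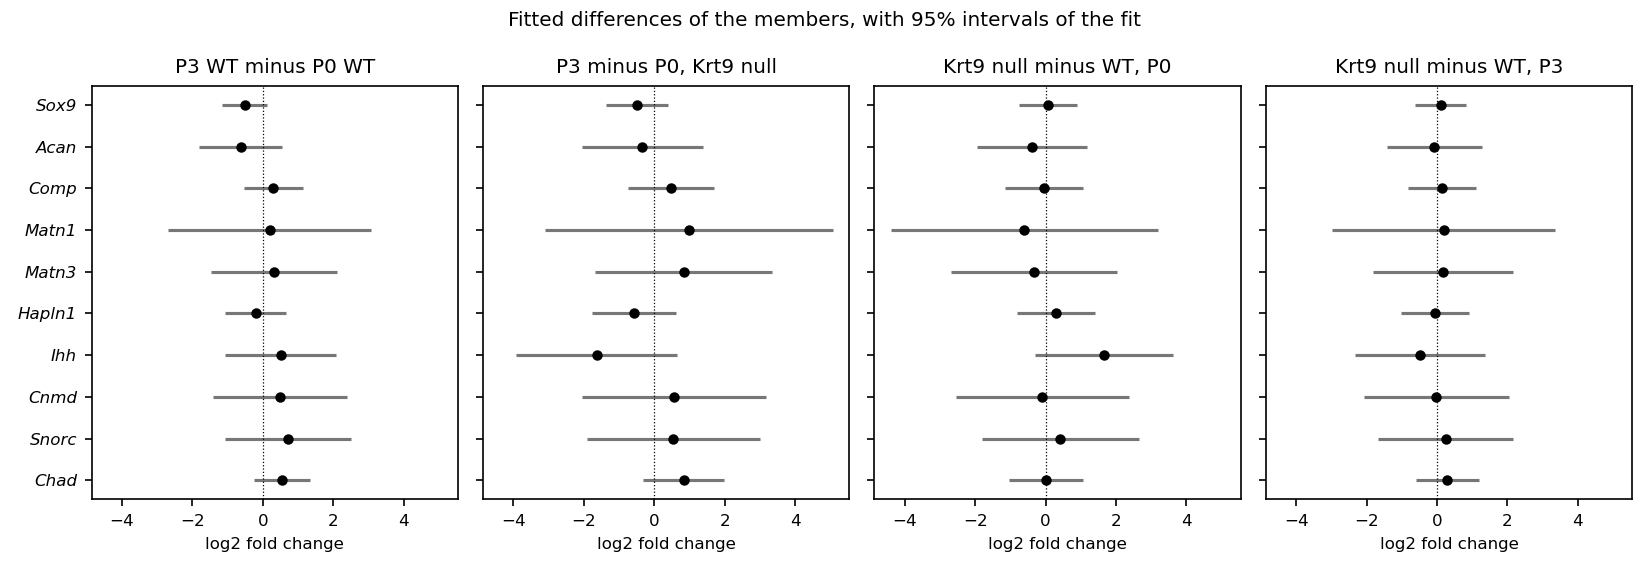
Fitted log2 fold change (points) with its 95% interval (lines) for each member in the 4 comparisons named above the panels. Every interval crosses 0, from the narrow ones of Sox9, such as -1.15 to 0.13 between the days in WT, to those of Matn1, such as -2.69 to 3.08.

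Loss of Krt9, the question of the study, was tested on each day. On P0 no member was called, with 0.00463% of tested genes called, and the members' median log2 fold change was -0.02 with 5 of 10 above 0. Ihh stood at 1.65 (-0.31 to 3.62) and Sox9 at 0.08 (-0.75 to 0.90). Without P0 Krt9 null replicate 1 all 10 members were below 0, with a median of -0.60. Without P0 Krt9 null replicate 2 the median was 0.52 with 7 of 10 above 0, and without P0 WT replicate 1 it was 0.56 with 9 of 10 above 0. No member was called in these fits. On P3 no member was called, again with 0.00463% of tested genes called, and the median was 0.12 with 6 of 10 above 0. Leaving out 1 library moved it to between -0.14, with 4 of 10 above 0, without P3 Krt9 null replicate 2, where 200 genes and no member were called, and 0.45, with 10 of 10 above 0, without P3 Krt9 null replicate 1. Sox9 stood at 0.10 (-0.62 to 0.82), Acan at -0.08 (-1.43 to 1.27), Comp at 0.14 (-0.82 to 1.10) and Ihh at -0.49 (-2.33 to 1.35). Groups overlapped for all members on both days, whereas they were apart for 11.3% of tested genes on P0 and 2.56% on P3. Unadjusted p-values under 0.05 in edgeR numbered 1289 on P0 and 1442 on P3 over all genes and none among the members, and DESeq2 called 9 and 26 genes, no member among them.

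The P3 direction changed with the sex term and with the libraries fitted. Run A holds 1 P3 Krt9 null library and 3 P3 WT libraries, and run B holds 2 of each. The members share these libraries, so their signs are not separate results. Without the sex term 0 of 10 members were above 0 and the median was -0.24, in run A alone 10 of 10 were above 0 with a median of 0.74, and in run B alone 1 of 10 was, with a median of -0.40. The genotype-by-day interaction was not called for any member or any tested gene (0.0%), with 1644 tested genes and no member at an unadjusted p under 0.05 in edgeR and 87 genes, no member, called by DESeq2. Ihh stood furthest from 0 there, at a log2 difference of -2.15 (-4.96 to 0.67).

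Within column runs, Sox9 was the only member with P0 and P3 values apart in the same direction in every run and genotype. In run A it was at 44.2 to 52.2 CPM on P0 and 33.3 to 39.2 CPM on P3 in WT, and at 61.4 and 39.2 CPM in Krt9 null paws. In run B it was at 23.9 CPM on P0 and 17.0 to 21.1 CPM on P3 in WT, and at 28.8 CPM and 22.3 to 26.4 CPM in Krt9 null paws. P3 was thus lower in every run and genotype, as for 1850 of 21619 tested genes (8.56%), so 1 of 10 members is close to that share. With run as a term, Sox9 fell from P0 to P3 in WT paws to 0.765-fold, a log2 fold change of -0.39 (SE 0.095, adjusted p = 0.00787, edgeR). In that fit 25.8% of tested genes were called and 13.2% were called lower, a share that 1 of 10 members does not exceed. Without the run term the Sox9 value was -0.51 (SE 0.30, adjusted p = 0.269, edgeR), not called. The call held in all 14 fits that also left out 1 library, with log2 fold changes of -0.45 to -0.33 and adjusted p of 0.00524 to 0.0475. In run A alone, where 30.0% of tested genes were called, the Sox9 value was -0.35 (adjusted p = 0.00996, edgeR). In run B alone, with 1 P0 WT library, it was -0.30 and not called. The fits that left out 1 library share most of their libraries, and how often the calls of other genes held in them was not counted. In Krt9 null paws the Sox9 value with run as a term was also -0.39 but was not called (SE 0.13, adjusted p = 0.0881, edgeR, with 4.95% of tested genes called). The difference between genotypes was -0.0043 (SE 0.16, adjusted p = 0.995, edgeR, with 0.0324% of tested genes called).

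Sox9 is also active outside cartilage, in hair follicles and other skin appendages among other places. Summed epidermal markers ran from 21213 to 47355 CPM in P0 WT and from 20633 to 29581 CPM in P3 WT. In Krt9 null paws they ran from 16482.8 to 27724.5 CPM on P0 and from 23802.5 to 51126 CPM on P3. The part of these markers in the Sox9 difference was not tested. Krt9 null minus WT for Sox9, with run as a term, was 0.29 on P0 (SE 0.12, adjusted p = 0.55) and 0.28 on P3 (SE 0.11, adjusted p = 0.492) in edgeR. Neither was called; 0.00463% of tested genes were called on P0 and 0.0324% on P3.

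The other 9 members had no day direction that all of them shared across runs. In run A their WT ranges overlapped for all 9, and in run B, with 1 P0 library and 2 P3 libraries per genotype, all 9 were higher on P3 in both genotypes, as were 5449 of 21619 tested genes (25.2%). Acan in run B was at 69.9 CPM on P0 and 74.8 to 131 CPM on P3 in WT, but in the Krt9 null pair of run A it was at 380 CPM on P0 and 158 CPM on P3. In that pair Comp rose instead, from 205 to 225 CPM, as did Chad, from 34.7 to 36.7 CPM. With run as a term, Comp stood at a log2 fold change of 0.47 (SE 0.23) in WT and 0.51 (SE 0.31) in Krt9 null paws. Chad stood at 0.65 (SE 0.37) and 0.88 (SE 0.52), and none of these values was called. The balance of Acan to Comp, singled out after its values were seen and not tested, was 1.87, 2.09 and 2.04 in the 3 P0 WT libraries of run A and 1.14, 0.928 and 0.955 in the 3 P3 WT libraries of that run. The Krt9 null pair of run A gave 1.85 on P0 and 0.702 on P3. In run B it was 1.01 and 0.804 on P0 and between 0.738 and 0.992 on P3, so the days were not apart there.

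**Figure D5:**
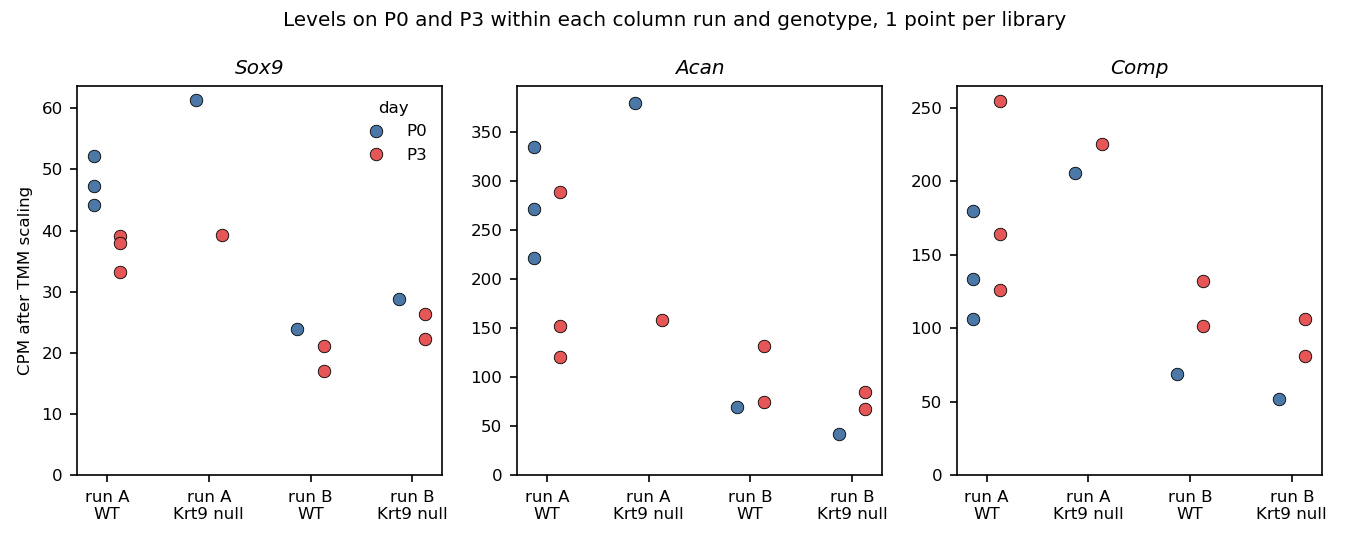
CPM of Sox9, Acan and Comp (vertical axes, from 0) on P0 (blue) and P3 (red) within each column run and genotype (horizontal axis), 1 point per library. Sox9 is lower on P3 in all 4 pairs of columns, for example 44.2 to 52.2 against 33.3 to 39.2 CPM in run A WT, whereas Acan and Comp are higher on P3 in run B.

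Among 13246 other tested genes with a mean of at least 2 CPM, the profile nearest to the mean of the 10 members was that of Col9a3, a collagen IX chain gene, at a distance of 0.365. It was followed by Meltf at 0.387, Col9a2 at 0.411, Cytl1 at 0.450, Ucma at 0.486, Susd5 at 0.493, Tubb3 at 0.533 and Itih5l-ps at 0.547. Col9a2, Cytl1 and Ucma are known cartilage genes, and Meltf encodes a membrane-bound transferrin relative. The members' mean profile itself had an SD of 0.813 over the libraries.

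Other lists were described in the fit without the run term. There 16.6% of tested genes were called between the days in WT (8.49% higher, 8.07% lower), so a count near those shares is no result about a list. Of other cartilage lists, none of the 8 cartilage collagen genes was called between P0 and P3 in WT paws by edgeR (1 had an unadjusted p under 0.05), with Col2a1 at a log2 fold change of 0.27 (SE 0.73) and Col11a1 at -0.15 (SE 0.25). Among 14 tested genes of other chondrocyte matrix, 1 rose, Clec3a at 1.48 (SE 0.43), and 2 fell, Mgp, an inhibitor of mineral deposition, at -0.99 (SE 0.14) and Fibin at -0.53 (SE 0.14). Among 12 chondrocyte transcription factors only Arid5b passed, at -0.89 (SE 0.14). Of 14 hedgehog and PTHrP pathway genes, which receive the Ihh signal or answer it, Hhip, a hedgehog-binding antagonist, rose by 0.67 (SE 0.17). There 4 fell, among them the coreceptor gene Boc at -0.48 (SE 0.13) and the receptor gene Ptch1 at -0.57 (SE 0.15). Of 14 growth-plate FGF and BMP genes 3 fell, the receptor gene Bmpr1b at -1.11 (SE 0.16) and the ligand genes Bmp2 at -0.79 (SE 0.17) and Fgf9 at -0.57 (SE 0.17).

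Of 15 genes for glycosaminoglycan synthesis and sulphation, the sulphate-donor enzyme gene Papss1 rose by 0.38 (SE 0.10) and Ugdh, which makes the UDP-glucuronate building block, fell by 0.58 (SE 0.12). Of 15 matrix-degrading enzymes and their inhibitors 3 fell, the proteoglycan-cleaving protease genes Adamts1 at -0.93 (SE 0.18) and Adamts5 at -0.58 (SE 0.11) and the inhibitor gene Timp3 at -0.68 (SE 0.21). Of 9 genes of hypertrophic cartilage, Slc37a2 rose by 0.53 (SE 0.16) and Spp1 fell by 0.44 (SE 0.13). Of 12 osteoblast and osteocyte genes 4 rose, led by Sost at 2.34 (SE 0.39), Mepe at 1.83 (SE 0.32) and Phex at 1.02 (SE 0.24), and none fell. Of 12 tendon and joint genes Scx rose by 0.48 (SE 0.14) and Tnmd by 0.46 (SE 0.14). In Krt9 null paws, where 0.768% of tested genes were called, Mgp fell by 1.19 (SE 0.19) and Ugdh by 0.76 (SE 0.16). None of these 10 lists held another called gene for that change. For genotype or the interaction edgeR called none of their genes, and each list held between 0 and 3 with an unadjusted p under 0.05. Several of these genes are active outside cartilage, so the counts do not single out chondrocytes.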

How the data were processed

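The authors deposited 1 table of raw read counts per Ensembl gene, with no normalization. Per the submitters' processing notes, STAR 2.7.10a and featureCounts were used with build GRCm39; no strand setting is given. Genes were named by Ensembl ID from GENCODE vM21, which matched 52073 of 56691 IDs, and 0 columns lacked a sample. No exon of another gene of that annotation overlaps a member.

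Counts were fitted in edgeR 4.0.16 (R 4.3.3; TMM scaling, filterByExpr, robust glmQLFit) over all 14 libraries with 4 groups and labelled sex, leaving 9 residual degrees of freedom. P-values were adjusted by Benjamini-Hochberg over 21619 genes and called under 0.05. All 10 members passed the filter. DESeq2 1.42.0 and limma 3.58.1 were alternatives. The code of the fit was run on simulated counts with large known changes, 1 spread for all genes and no run or sex effect. That spread was below the members' own, so the simulation does not gauge power or error for them. CPM is after TMM scaling; profiles use log2(CPM + 0.5). Exon lengths are from GENCODE vM21. Column runs were read from the order of the table's columns.

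Members, lists and tests were chosen with earlier results of these data known. Named genes are the members, Krt9, of each other list up to 3 called genes with the smallest adjusted p or, with none called, the 2 with the highest mean CPM, and the 8 nearest profiles. The labels mark a litter: 1 P0 pair across genotypes and 1 P3 WT pair share one, with residual correlations of -0.179 and -0.113. In limma voom the consensus correlation for litter within a day was 0.555, so these values do not settle how alike litter mates are. Whether equal numbers on both days mean 1 litter is not given.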

Additional observations from a re-analysis of the deposited data

Results flagged for a closer look

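The 20 sets of values tested were the 10 members in the 2 groups of 4 or more libraries. A single library stood apart from its group on the CPM scale, without logs, in 4 of them. In each, the gap between P0 WT replicate 1 and the nearest other P0 WT library was above Dixon's 95% critical value of 0.829 of the group's range. Matn1 was at 34.1 CPM there, with 2.93 CPM next. Matn3 was at 27.5 CPM, with 4.75 CPM next. Cnmd was at 46.5 CPM, with 7.37 CPM next. Snorc was at 10.8 CPM, with 2.11 CPM next. Chance would flag about 1 in 20 such groups if their values were normally distributed. CPM of genes with so wide a spread need not be, and log values were not tested for outliers. The 4 genes share this 1 library, so the flags are not independent of each other. Leaving it out moved the members' median log2 fold change between the days in WT from 0.31 to 0.65 and called no member. That median was also moved by libraries that did not stand apart, to -0.21 with 2 of 10 members above 0 without P3 WT replicate 5 and to 0.07 without P0 WT replicate 4.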

How the results depend on the processing

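Of 2140 values of a member under an alternative setting, 1781 kept their sign and their side of the threshold, 310 changed sign and 49 of the others were newly called. Another scaling, a stricter filter, DESeq2, limma voom and no sex term called no member. Leaving out each library in turn called 0 to 0 members in every comparison. Litter within a day as a replicate block called 0 members, and litter number across days as a block, with 2 residual degrees of freedom, also called 0. With column run as a term 1 member, Sox9, was called lower between the days in WT, also 1 in run A alone, 1 with limma voom, 1 without the sex term and 1 to 1 when a library was left out as well; the last 3 settings were chosen after seeing the data. For that comparison 25.8% of all genes were called with the run term and 30.0% in run A alone. With the run term, limma voom called 5410 of 21619 genes, the fit without sex 5278, and those leaving out a library 3712 to 6786. Calling 1 of 10 members does not exceed such shares. No filter on low counts, which moved edgeR's median prior degrees of freedom from 5.62 to Inf, called 3 higher and 2 lower between the days in WT, 2 higher and 1 lower in Krt9 null, 1 higher for genotype on P0 and 1 lower for the interaction, where 11.4%, 4.6%, 0.494% and 1.68% of all genes were called. Run B alone, with 1 residual degree of freedom and a median prior of 52.7, called 8 higher between the days in WT, 7 higher in Krt9 null, 3 higher and 3 lower for genotype on P0, 5 lower on P3 and 5 lower for the interaction, where 17.1%, 22.6%, 1.44%, 8.77% and 2.64% of all genes were called. It also turned the sign of Hapln1 (0.92) between the days in WT, of Acan (0.58) in Krt9 null, of Matn1 (1.74), Matn3 (1.33), Cnmd (1.48) and Chad (-1.10) for genotype on P0, of Comp (-0.31) on P3, and of Matn1 (-2.16), Matn3 (-1.60) and Cnmd (-2.01) for the interaction, all log2; the cause was not tested. These fits take the spread almost wholly from other genes, and the members' own spread, at 31.1% to 122%, was above that trend of 18.5% to 36.1%. All-gene calls between the days in Krt9 null ranged from 0 to 645 when 1 library was left out (0 without P0 Krt9 null replicate 2, 645 without P3 Krt9 null replicate 2). For genotype on P3 they rose from 1 to 200 without P3 Krt9 null replicate 2, and for the interaction from 0 to 47 without P0 WT replicate 4 and 13 without P3 Krt9 null replicate 2. Counting limits Matn1, Ihh and Snorc most, whose lowest libraries held 2, 9 and 22 counts.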
